A study of Mus musculus with 6 samples.

Results

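Gfap, Vim, Nes, Synm, Lmna, Lmnb1 and Lmnb2, which encode intermediate filament proteins of reactive glia and of the nuclear lamina, were examined in cultures of EGCs, the enteric glial cells that surround neurons in the wall of the intestine. The genes were chosen by symbol, and all 7 were found among the 46603 gene identifiers counted. EGCs were grown as neurospheres, floating clusters of progenitor cells, from the whole intestine of C57BL/6J embryos at E14.5 and were then spread as adherent cells in medium with serum. Of 6 bulk poly(A) RNA libraries, 3 were of untreated control EGCs and 3 of EGCs given lipopolysaccharide (LPS), a component of the wall of gram-negative bacteria, at 100 ng/ml for 12 h. All 6 shared the strain and the culture procedure, no line or transgene was named, and the labels number the libraries 1 to 3 in each group without saying whether they came from separate litters or dishes. The p-values below therefore measure the spread between these libraries, which may be technical.

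Intermediate filaments are rope-like polymers that give cells and nuclei mechanical strength. Vimentin and glial fibrillary acidic protein (GFAP) form homopolymers in the cytoplasm, whereas nestin and synemin build into vimentin-containing filaments. A-type and B-type lamins line the inside of the nuclear envelope, where they hold chromatin and the nuclear membrane. In the central nervous system a rise in GFAP, vimentin and nestin is a classical sign of gliosis, the reaction of glia to injury.

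The cultures carried glial transcripts together with those of other cells. Sox10, the transcription factor that marks EGCs, averaged 88.0 CPM (counts divided by the normalised library size in units of 1e+06) in control and 77.0 CPM in LPS, and 9 glial marker genes passed the filter on low counts. Of these 9, edgeR called 2 higher in LPS, Fabp7 (1.29 on the log2 scale, adjusted p = 0.0122) and Gfra2 (0.85, 0.0117), and 2 lower, S100b (-1.91, 0.0238) and Cdh19 (-0.66, 0.0457), and none of the 9 was called without control 1, control 2 or LPS 2. The summed glial markers ranged from 452 to 653 CPM in control and from 487 to 523 CPM in LPS. Mesenchymal markers summed to between 16869 and 17688 CPM, most of it from collagen genes, and 2 of the 8 were called higher, Dcn (log2 difference 0.90, edgeR adjusted p = 0.0118) and Pdgfra (0.50, 0.0114), but none without control 1, control 2, LPS 1 or LPS 2. Smooth muscle markers summed to between 2349 and 2599 CPM in control against 683 to 982 CPM in LPS. The summed macrophage markers were highest in both libraries numbered 3, at 11909 CPM in control 3 and at 19710.0 CPM in LPS 3, against 3889 to 5248 CPM in the other 4. In such bulk RNA, fewer cells of a type and less RNA per cell cannot be told apart. Total counts ranged from 18775316 to 23664312 per library, and 3 counts, taken as the detection floor, equalled 0.124 to 0.167 CPM, which covers counting error only. All 7 filament and lamin genes were above it in every library. Values with ± below are the mean and SD over the 3 libraries of a group, and a log2 difference is the edgeR log2 fold change of LPS over control.

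Coordinates refer to GRCm38 with the GENCODE M21 annotation, and all 7 genes are protein-coding. Gfap (ENSMUSG00000020932) lies on chromosome 11, 102887336 to 102900912, minus strand. Vim (ENSMUSG00000026728) lies on chromosome 2, 13573927 to 13582826, plus strand. Nes (ENSMUSG00000004891) and Lmna (ENSMUSG00000028063) are both on chromosome 3, Nes at 87971078 to 87980451 on the plus strand and Lmna at 88480147 to 88509956 on the minus strand. Synm (ENSMUSG00000030554) lies on chromosome 7, 67730160 to 67759742, minus strand. Lmnb2 (ENSMUSG00000062075) lies on chromosome 10, 80901203 to 80918245, minus strand, and the location of Lmnb1 is given with its values. The counts cover exons, whose merged length ranged from 2.962 kb for Lmnb1 to 7.933 kb for Synm. Exons of Ttc23 and Gm45102 on the opposite strand overlap 6.43% of the exonic bases of Synm. The labels and the series text differ on whether the kit kept the strand, and the strand setting of the counting is not given in the sources used here. The Synm counts are therefore uncertain, and how many of them the overlap affects was not tested. Of the other 6, at most 0.118% of 50-base exon words were shared with another gene.

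The DNA just before the transcription start is shown for the 2 genes that were called lower in LPS, Nes and Lmna, and for Gfap, whose groups overlapped. The sequences are from RefSeq (GRCm38.p6), written 5′ to 3′ on the strand of the gene and without bases that GENCODE places in an exon, and capitals mark CCGCCC, the GC box read on the opposite strand.
Nes, chr3:87970943-87971077, plus strand, start site at 87971093: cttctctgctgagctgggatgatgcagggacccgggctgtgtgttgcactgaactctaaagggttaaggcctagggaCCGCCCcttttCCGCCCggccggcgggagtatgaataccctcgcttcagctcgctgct
Lmna, chr3:88503387-88503502, minus strand, start site at 88503352: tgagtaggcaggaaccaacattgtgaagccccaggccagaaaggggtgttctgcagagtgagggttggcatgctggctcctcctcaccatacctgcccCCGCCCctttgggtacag
Gfap, chr11:102897201-102897350, minus strand, start site at 102897200: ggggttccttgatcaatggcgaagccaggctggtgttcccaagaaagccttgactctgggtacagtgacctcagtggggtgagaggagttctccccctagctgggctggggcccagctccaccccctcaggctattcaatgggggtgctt
The RefSeq promoter table held 8 start sites of 6 of the genes. In the 250 bases before each start, both strands were searched for the TATA box TATAAA, the CCAAT box, the GC box GGGCGG, the AP-1 motif TGANTCA, the STAT motif TTCNNNGAA and the E2F motifs TTTGGCGC and TTTCCCGC, none of which contains another. GC boxes began 73 and 62 bases before the Nes start and 52 bases before the Lmna start shown, and 32.7% of all 32851 promoter windows in the table held such a box. The Vim window held a TATA box 32 bases before the start, which 12.4% of windows held, and 2 CCAAT boxes at 196 and 94 bases, which 33.8% held. A CCAAT box was also found 78 bases before the Synm start and 131 bases before another Lmna start, and a GC box 7 bases before an Lmnb2 start. The letters of the AP-1 (6.75% of windows), STAT (7.02%) and E2F motifs (0.417% and 0.895%) were in none of the 8 windows, and the Gfap window held none of the motifs searched. Such matches describe the sequence and not binding.

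First, the levels of the 7 genes were placed in order on a scale that allows genes to be compared, CPM per kilobase of exon. Vim was far above the rest, at 481 ± 42.7 in control, which was percentile 99.7 of all tested genes. Lmna followed at 66.2 ± 2.35 and Nes at 37.6 ± 1.53, at percentiles 96.0 and 92.4. Lmnb1 was at 11.6 ± 3.30 and Lmnb2 at 4.54 ± 1.21 CPM per kb, the latter near the middle of all genes (percentile 48.1). Synm and Gfap were lowest, at 1.12 ± 0.421 and 0.992 ± 0.306 CPM per kb, percentiles 21.5 and 19.8. In control no library of a gene overlapped with a library of the next gene in this order, except for Synm and Gfap, which overlapped and cannot be ordered. In LPS the order was the same down to Lmnb2, at 394 ± 48.7 (Vim), 47.1 ± 3.90 (Lmna), 28.6 ± 1.81 (Nes), 6.00 ± 1.15 (Lmnb1) and 3.65 ± 0.303 CPM per kb (Lmnb2), again without overlap. Gfap at 0.966 ± 0.650 and Synm at 0.903 ± 0.340 CPM per kb overlapped in LPS as well. Within a library, Vim made up 91.5% to 93.8% of the summed level per kb of the 4 cytoplasmic genes and Gfap 0.118% to 0.463%.

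**Figure D1:**
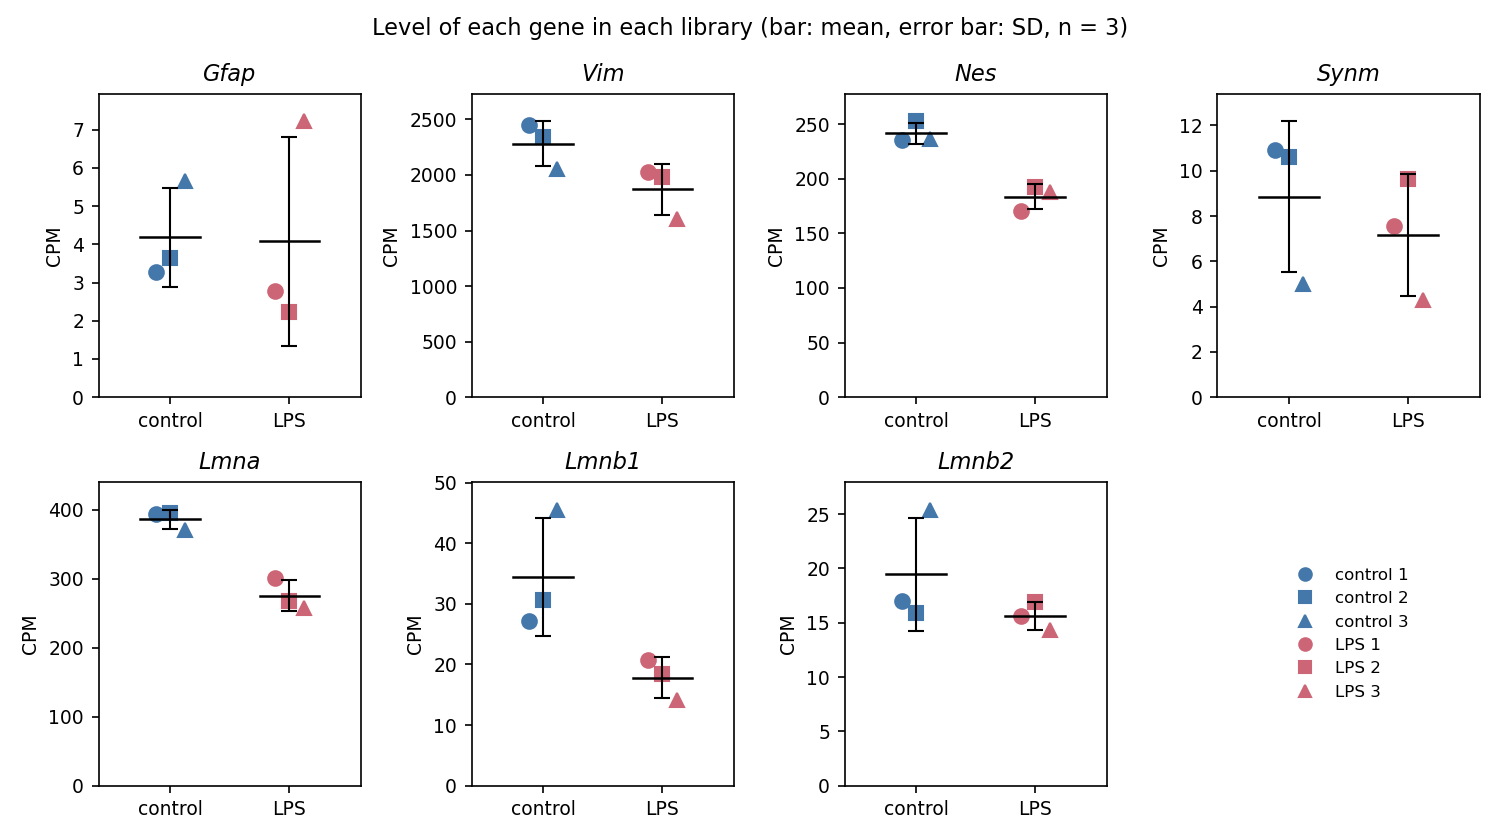
Level of each gene in CPM on the vertical axis, from 0, in the 3 control libraries (blue) and the 3 LPS libraries (red), with the mean and SD as bars. Nes, Lmna, Vim and Lmnb1 were lower in every LPS library than in every control library, whereas the groups of Gfap, Synm and Lmnb2 overlapped, and the libraries numbered 3 (triangles) stood highest for Gfap and lowest for Synm.

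Next, LPS was compared with control for each gene. Of the 7 genes, 2 (Nes and Lmna) fell by the edgeR quasi-likelihood test at an adjusted p under 0.05, which is what "called" means here, when 6.71% of all 15226 genes tested were called lower. None of the 7 was called higher by edgeR, against 9.09% of all genes, and none was higher at an unadjusted p under 0.05 (0 genes) or with DESeq2 or limma-voom (0 genes each). The median log2 difference of the 7 was -0.31, beside -0.02 over all genes. In 4 of the 7 (Vim, Nes, Lmna and Lmnb1) every LPS library was below every control library, a pattern shown by 19.4% of all genes. Libraries with the same number deviated together from their group means (r from 0.334 to 0.613 across genes). Control 1 also correlated with LPS 2 (0.419) and control 2 with LPS 1 (0.323), so these values set number 3 apart but do not separate numbers 1 and 2. With the number as a block, a pairing taken from the data and not from the labels, 3 of the 7 were called lower, Vim in addition. In that fit 14.9% of all genes were called lower and 15.4% higher. With both libraries numbered 3 left out, 4 of the 7 were called lower (Vim, Nes, Lmna and Lmnb1), when 20.4% of all genes were called lower and 22.6% higher.

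**Figure D2:**
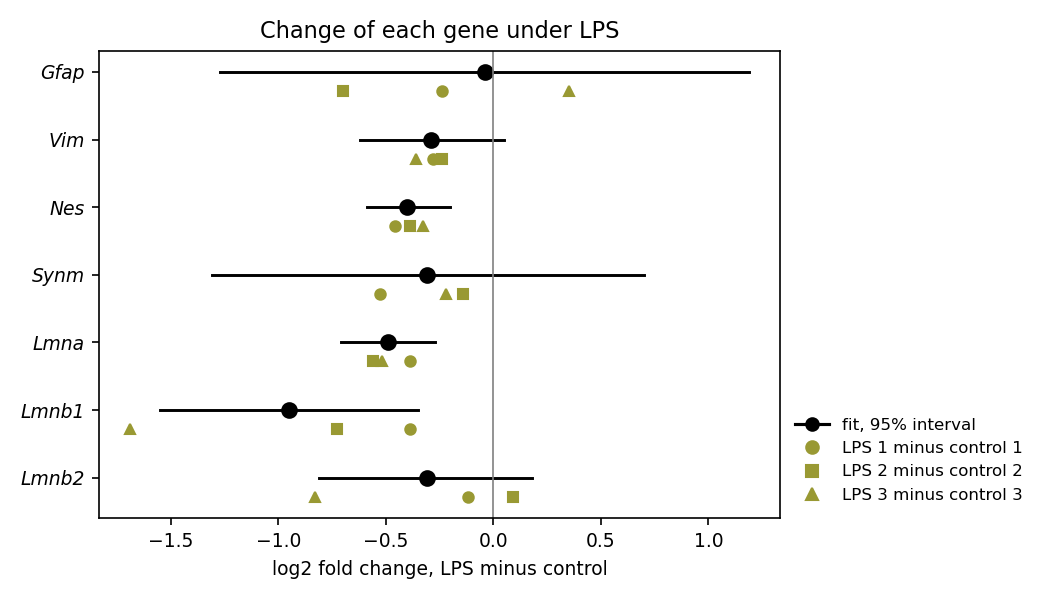
Log2 difference of each gene, LPS minus control, on the horizontal axis: the black point and line are the edgeR estimate and its 95% interval, and the olive symbols are the differences between libraries of the same number. The intervals of Nes, Lmna and Lmnb1 lie below 0, and the Gfap symbols run from -0.70 to 0.35.

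Among the cytoplasmic filament genes, Gfap, which encodes the filament protein that names reactive astrocytes and marks a part of EGCs, was scarce. It reached 3.26, 3.63 and 5.66 CPM in control 1, 2 and 3, from 77, 82 and 137 counts, and 2.77, 2.23 and 7.22 CPM in LPS 1, 2 and 3, from 56, 40 and 138 counts. The groups overlapped, with both libraries numbered 3 highest and LPS lower than control in numbers 1 and 2 but higher in number 3. The means were 4.18 ± 1.29 CPM in control and 4.07 ± 2.74 CPM in LPS, a log2 difference of -0.04 (SE 0.50, edgeR adjusted p = 0.967). Its 95% interval, -1.27 to 1.19, leaves changes of more than 2-fold in either direction undetermined. The sign itself turned when control 3 (0.26), LPS 1 (0.18) or LPS 2 (0.25) was left out, while without LPS 3 the value was -0.74.

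Vim encodes vimentin, the main cytoplasmic filament of mesenchymal cells and of immature or cultured glia. It was at 2451, 2338 and 2058 CPM in control and at 2024.5, 1980.1 and 1604 CPM in LPS 1, 2 and 3. No LPS library reached the lowest control library, but the gap between control 3 and LPS 1 was narrow, and number 3 was the lowest library of either group. The means of 2282 ± 203 and 1869.5 ± 231 CPM gave a log2 difference of -0.29 (SE 0.14, 95% interval -0.62 to 0.05) which missed the threshold (edgeR adjusted p = 0.207). Taken by number, the differences were close to each other, at -0.28, -0.24 and -0.36, and with the replicate block the same value of -0.29 was called (edgeR adjusted p = 0.0298). Without both libraries numbered 3 the value was -0.24 (edgeR adjusted p = 0.00954), without LPS 3 alone it was -0.19, and over 15 alternative settings the adjusted p ran from 0.00954 to 0.471.

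Nes, encoding the progenitor filament protein nestin, fell in LPS. It was at 235, 253 and 236 CPM in control and at 170.5, 193 and 188 CPM in LPS 1, 2 and 3, and the highest LPS library lay well below the lowest control. The mean went from 242 ± 9.81 to 184 ± 11.6 CPM, a log2 difference of -0.40 (SE 0.08, 95% interval -0.59 to -0.20, edgeR adjusted p = 0.0277), or 0.76 of the control level. All 3 numbers showed this direction, at -0.46, -0.39 and -0.33. The size of the change moved little when single libraries were left out (-0.43 to -0.34), but the call did not hold without control 1, control 2, control 3, LPS 1 or LPS 2, with edgeR adjusted p-values of 0.0999, 0.138, 0.053, 0.0984 and 0.0843.

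Synm encodes synemin, a large filament protein that copolymerises with vimentin or desmin. It was at 10.9, 10.6 and 5.0 CPM in control and at 7.56, 9.64 and 4.29 CPM in LPS 1, 2 and 3. Each LPS library was below the control of its number, yet the groups overlapped because control 3 was below LPS 1 and LPS 2. The means were 8.85 ± 3.34 and 7.16 ± 2.70 CPM, a log2 difference of -0.31 (SE 0.41, 95% interval -1.31 to 0.70, edgeR adjusted p = 0.661), and no alternative setting called it (lowest adjusted p 0.157). The value was -0.11 without control 1, -0.14 without control 2, -0.57 without control 3, -0.58 without LPS 2 and -0.04 without LPS 3.

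Of the lamins, Lmna encodes lamins A and C, the A-type lamins of differentiated and mechanically loaded cells, and it fell. It was at 393, 395 and 371 CPM in control and at 301, 267 and 258 CPM in LPS 1, 2 and 3, so that the groups stood clearly apart. The mean went from 386 ± 13.7 to 275 ± 22.7 CPM, a log2 difference of -0.49 (SE 0.09, 95% interval -0.71 to -0.27, edgeR adjusted p = 0.0204), or 0.71 of the control level with an interval of 0.61 to 0.83. The 3 numbers gave -0.39, -0.56 and -0.52. The call was made in 12 of 15 alternative settings and was lost without control 1, control 2 or LPS 2 (edgeR adjusted p = 0.0925, 0.107 and 0.0956).

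Lmnb1 encodes lamin B1, which is abundant in dividing cells and is lost in senescent cells. The gene (ENSMUSG00000024590) lies on chromosome 18, 56707813 to 56753424, plus strand. It was at 27.2, 30.6 and 45.5 CPM in control and at 20.8, 18.5 and 14.1 CPM in LPS 1, 2 and 3. All LPS libraries were below all controls, but control 3 was far above the other controls. The means were 34.4 ± 9.77 and 17.8 ± 3.40 CPM, which gave the most negative estimate of the 7 genes, a log2 difference of -0.95 (SE 0.24, 95% interval -1.55 to -0.35), just outside the threshold (edgeR adjusted p = 0.0506). By number the differences were uneven, at -0.39, -0.73 and -1.69. Without both libraries numbered 3 the estimate was -0.53 and was called (edgeR adjusted p = 0.00578), and DESeq2 called it at -0.94 (adjusted p = 0.00627). Over the 15 alternatives the adjusted p ran from 0.00578 to 0.15, and 4 of them called the gene.

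Lmnb2 encodes lamin B2, the second B-type lamin. It was at 17.0, 15.9 and 25.4 CPM in control and at 15.7, 16.9 and 14.3 CPM in LPS 1, 2 and 3. The groups overlapped, and control 3 alone stood above the rest. The means of 19.4 ± 5.20 and 15.6 ± 1.30 CPM gave a log2 difference of -0.31 (SE 0.20, 95% interval -0.81 to 0.18, edgeR adjusted p = 0.342). Without control 3 it was -0.06, and without both libraries numbered 3 it was 0.01 (edgeR adjusted p = 0.958).

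To examine whether the genes changed relative to each other, the ratio of the levels per kb of 2 genes was taken within each library, which does not depend on the scaling between libraries. Of 6 such ratios, that of Lmnb1 to Lmnb2 alone separated the groups. Its log2 value was 1.21, 1.48 and 1.37 in control and 0.94, 0.66 and 0.51 in LPS 1, 2 and 3. The difference of -0.65 had an exact permutation p of 0.1 (two-sided, 3 against 3), which is the smallest this design can give, and 0.6 after Benjamini-Hochberg adjustment over the 6 ratios. It was lower in LPS for all 3 numbers, and it ranged from -0.77 to -0.55 when single libraries were left out. Lmna relative to Lmnb1 was 0.44 higher in LPS on the log2 scale (exact permutation p = 0.2), with overlapping groups and a difference of 0.00, 0.16 and 1.17 for numbers 1, 2 and 3, and it was 0.19 without control 3. Nes relative to Vim differed by -0.10 (exact permutation p = 0.7), Gfap relative to Vim by 0.10 (0.9), Synm relative to Vim by 0.00 (1.0) and Lmna relative to Lmnb2 by -0.21 (0.5), all with overlapping groups. The value for Lmna relative to Lmnb2 was -0.11 without control 1, -0.06 without control 2, -0.13 without LPS 2 and -0.45 without control 3. Lmna made up 82.8% to 83.7% of the summed lamin level per kb in control 1 and 2, 74.9% in control 3 and 81.8% to 84.5% in LPS. Lmnb1 made up 11.4%, 12.6% and 18.1% in control and 11.3%, 11.2% and 9.1% in LPS.

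**Figure D3:**
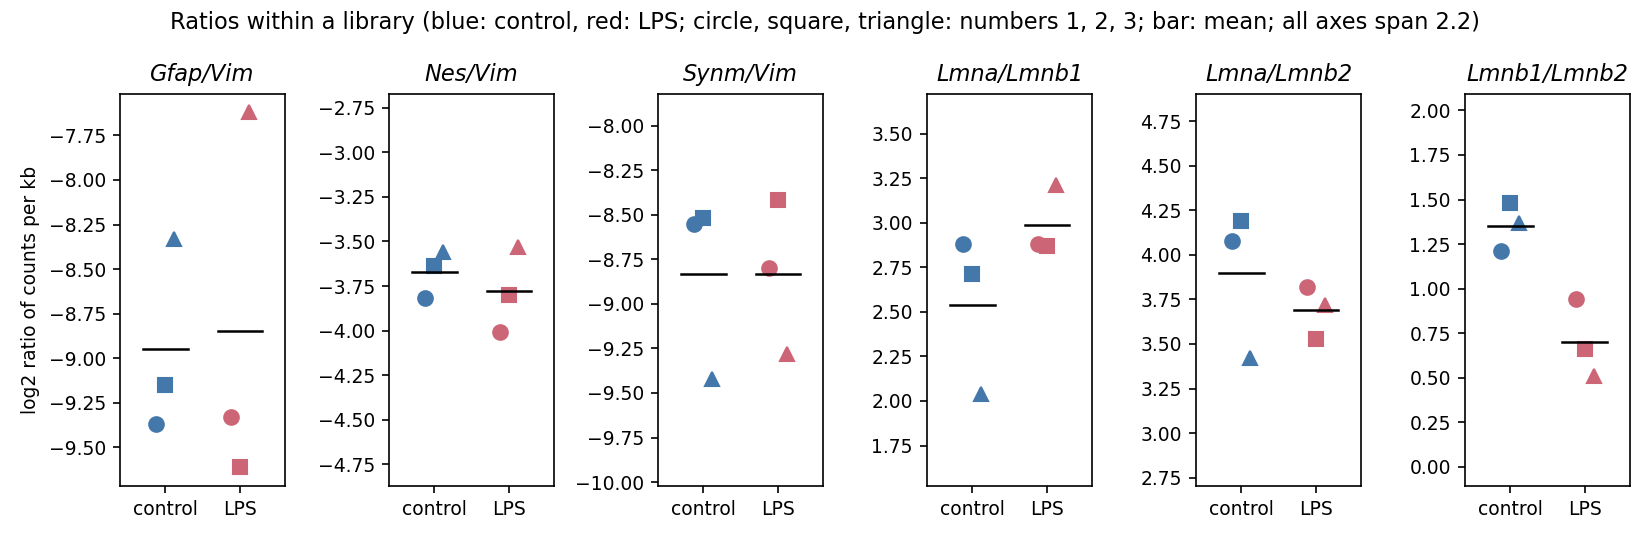
Log2 ratio of the counts per kb of 2 genes within each library, on axes of equal span, for control (blue) and LPS (red), with bars at the means. The 6 panels show that the log2 value of Lmnb1/Lmnb2 ran from 0.51 to 0.94 in LPS and from 1.21 to 1.48 in control, while the other 5 ratios overlapped.

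The marker lists were then read beside these changes. Lmnb1 moved with the summed level of 24 proliferation genes, all above the floor in every library. This sum was 806, 923 and 1497 CPM in control and 736, 598 and 585 CPM in LPS 1, 2 and 3. The 6 libraries fell in the same order for Lmnb1 and for this sum, from control 3 down to LPS 3. Not every gene of the list followed this order. Mcm3, Mcm6 and Pcna were higher in LPS 3 (42.3, 83.0 and 97.3 CPM) than in LPS 1 and 2, and Tyms had a positive log2 difference (0.28, edgeR adjusted p = 0.388). Of the 24 genes, edgeR called 2 lower (Ccnb2 and Cenpf) and 0 higher, with a median log2 difference of -0.78, against 14 lower and 0 higher at an unadjusted p under 0.05, 7 lower and 0 higher with DESeq2, and 3 lower and 0 higher with limma-voom. Without control 3 the median was -0.46. The block gave 5 lower and 0 higher, and without both libraries numbered 3 there were 9 lower and 1 higher, with a median of -0.33. No proliferation gene was called without control 1, control 2, control 3 or LPS 2, and 1 and 4 were called lower without LPS 1 and LPS 3. Lmnb2 shared the high value in control 3 but not the order of the other libraries. The part of proliferation in the Lmnb1 and Lmnb2 values was not tested.

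The libraries numbered 3, in which the summed macrophage markers were highest, also stood apart for Gfap and Synm. Of 12 such markers, 11 were above the floor in every library, and their summed level was 3889, 5013 and 11909 CPM in control 1, 2 and 3 and 4039.6, 5248 and 19710.0 CPM in LPS 1, 2 and 3. Lyz2, the lysozyme gene, made up 58.2% to 74.3% of this sum, and 8 of the 12 markers were higher in both libraries numbered 3 than in the other 4, whereas Adgre1, Cd14, Aif1 and Mrc1 were not. Gfap was highest and Synm lowest in both libraries numbered 3, but among the other 4 Gfap was lowest in LPS 2, where the sum was highest. The 8 neuron markers, all above the floor in every library, summed to 670.0, 649 and 411 CPM in control and 546, 574 and 429 CPM in LPS 1, 2 and 3. Synm had the same order of libraries as this sum except that control 3 and LPS 3 changed places. Of the neuron markers edgeR called 1 lower and 0 higher (unadjusted p under 0.05: 2 and 0, DESeq2 and limma-voom: 1 and 0 each), with a median log2 difference of -0.08 that ran from -0.37 without control 3 to 0.13 without LPS 3. The edgeR test called 1 macrophage marker higher (Adgre1) and 0 lower, the median log2 difference was 0.68, and at an unadjusted p under 0.05 there were 3 higher and 1 lower (DESeq2 2 and 0, limma-voom 1 and 0). The fit with the number as a block gave 5 higher and 3 lower macrophage markers, and without both libraries numbered 3 there were 4 of each. The median was 0.30 without control 1, 0.43 without control 2, 1.45 without control 3, 1.08 without LPS 1 and -0.79 without LPS 3, and Adgre1 was not called without control 1, control 2, LPS 1 or LPS 2. Nes and Lmna, like Vim and Lmnb1, were lower in every LPS library than in every control library, as was the sum of the smooth muscle markers. This pattern was shown by 19.4% of all genes. Of 8 smooth muscle markers 7 were called lower, with a median log2 difference of -1.83 and no overlap between the groups in their summed level, given above, and without control 2 the number called was 4. The 5 mesothelial markers, all above the floor in every library, did not overlap either, with sums of 68.6, 63.2 and 95.4 CPM in control and 34.6, 36.7 and 56.4 CPM in LPS 1, 2 and 3. Their median log2 difference was -0.82 (-1.26 without LPS 3), and edgeR called 1 lower (Lrrn4, -2.26, adjusted p = 0.0186) and 0 higher (unadjusted p under 0.05: 3 and 0, DESeq2: 2 and 0, limma-voom: 1 and 0), 4 lower with the replicate block or without LPS 3, and 0 without control 2, LPS 1 or LPS 2. The part of macrophages, neurons, smooth muscle cells and mesothelial cells in the values of the filament and lamin genes was not tested.

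**Figure D4:**
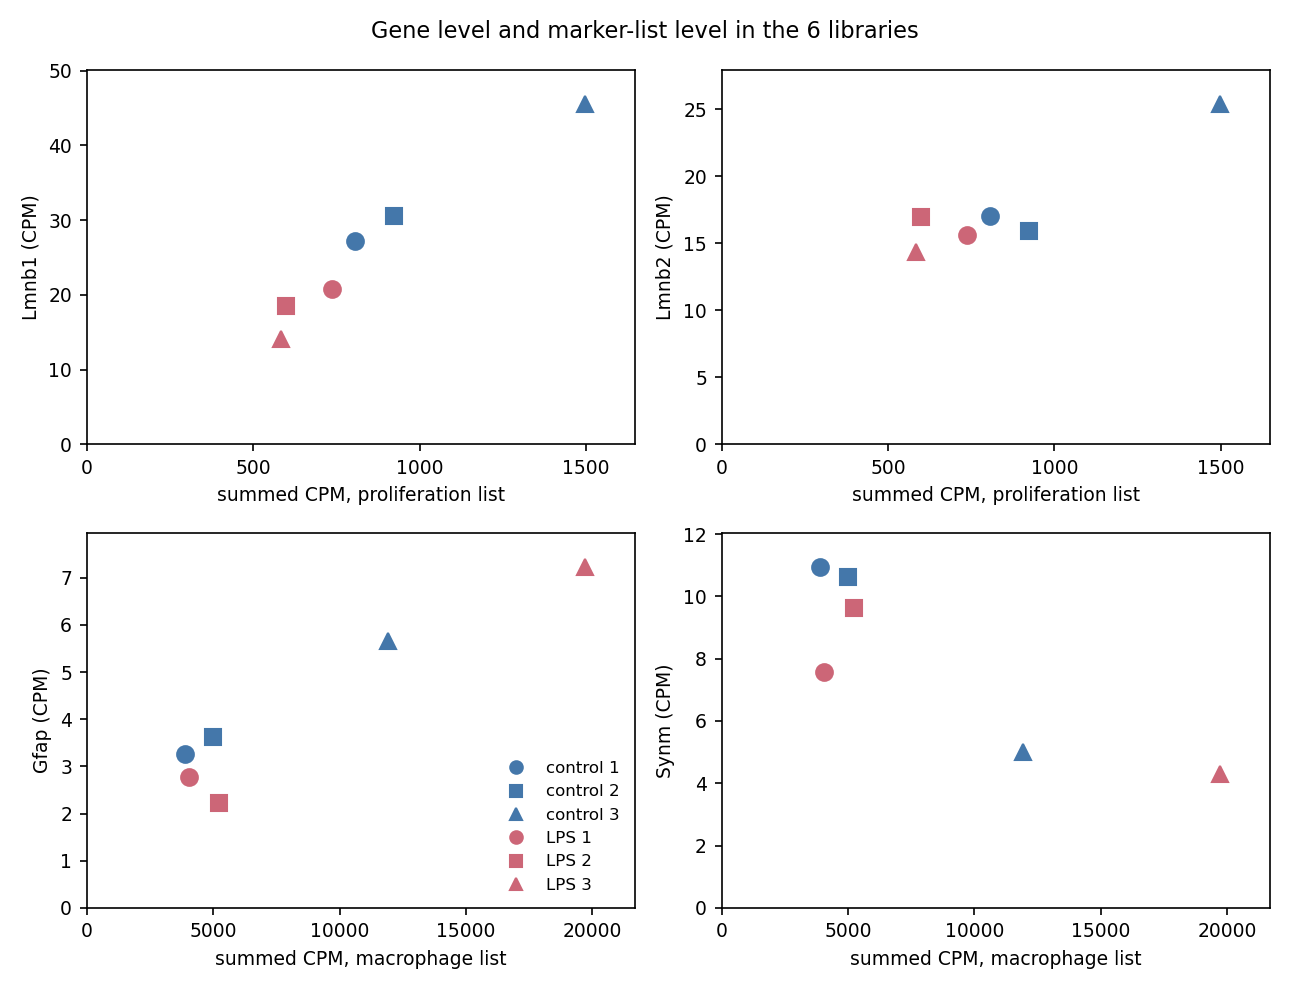
Level of a gene in CPM (vertical axes) against the summed CPM of a marker list (horizontal axes) in the 6 libraries, for Lmnb1 and Lmnb2 with 24 proliferation genes and for Gfap and Synm with 12 macrophage markers. Lmnb1 was higher in each library with a higher proliferation sum, and both libraries numbered 3 (triangles) lay to the right for macrophage markers, with high Gfap and low Synm.

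The genes whose pattern over the 6 libraries was most like that of each gene were identified by the root mean square (RMS) difference of centred log2 CPM, which describes likeness and not shared control. For Lmnb1 these were Cenpn, a centromere protein gene, and Nek2, a mitotic kinase gene, at RMS differences of 0.084 and 0.089. For Lmna they were Dock1 (0.0202) and Hmgn1 (0.0262), and for Nes Ppp3ca (0.0371) and Evi5l (0.0392). Vim was most like Rab11fip3 (0.0209) and Srbd1 (0.0292). Synm was nearest to Gnao1 (0.0693) and Syt2 (0.0876), a G protein subunit gene and a synaptotagmin gene of neurons, which were also low in both libraries numbered 3. Lmnb2 was nearest to Tmem194 (0.0924) and Pask (0.0959), and Gfap to Gda (0.136) and Tmem104 (0.139).

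Other filament genes were read from the same fit. Among 7 further type III and IV filament genes, 1 was called lower and 0 higher by edgeR (unadjusted p under 0.05: 2 lower and 0 higher, DESeq2: 2 and 0, limma-voom: 1 and 0), with a median log2 difference of -0.35. This median was -0.06 without control 1, -0.21 without LPS 3, -0.55 without LPS 2 and -0.61 without control 3. That gene was Des, which encodes desmin, the muscle filament, and which went from 266 ± 25.9 to 73.9 ± 18 CPM (log2 difference -1.85, edgeR adjusted p = 0.0044). The call for Des held without each single library, and Des is also a smooth muscle marker of the list above. Sync, encoding syncoilin, a partner of desmin, was called in addition with the replicate block (log2 difference -1.20 and edgeR adjusted p = 0.0956 without it, 0.00571 with it). The neuronal filament genes Prph and Ina were at 32.2 ± 18.2 and 9.53 ± 4.72 CPM in control, against 30.3 ± 14.4 and 8.61 ± 2.93 CPM in LPS and were not called (edgeR adjusted p = 0.94 and 0.867).

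Cytolinkers are giant proteins that tie intermediate filaments to actin, microtubules and junctions. Of 5 tested, 1 was called lower, Macf1, which links actin and microtubules, from 327 ± 44.0 to 238 ± 11.9 CPM (log2 difference -0.46, edgeR adjusted p = 0.0484). Plec, encoding plectin, the linker that binds vimentin, had 354 ± 25.8 CPM in control against 346 ± 10.9 CPM in LPS, a log2 difference of -0.04 (SE 0.08, edgeR adjusted p = 0.808). The median of the 5 was -0.46. With the replicate block a second, Dsp, was called lower (edgeR adjusted p = 0.0231 with it, 0.314 without it). Dsp was scarce, at 1.88 ± 1.33 CPM in control against 0.70 ± 0.471 CPM in LPS, and at the floor in LPS 3 (0.157 CPM). The call for Macf1 was lost without control 1, control 2, LPS 1, LPS 2 or LPS 3 (edgeR adjusted p = 0.124, 0.144, 0.123, 0.149 and 0.0711).

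Proteins that bind the lamins in the nuclear envelope were represented by 15 genes, of which 1 was called higher and 1 lower, with a median log2 difference of 0.06 (-0.01 without LPS 2 and 0.11 without control 3). There were 2 higher and 3 lower at an unadjusted p under 0.05, 1 and 3 with DESeq2, and 1 and 1 with limma-voom. Leaving out both libraries numbered 3 gave 5 higher and 3 lower, with a median of 0.13. Tor1aip1 encodes LAP1, an inner nuclear membrane protein that binds lamins and activates torsin A, and it rose from 127 ± 21.4 to 271 ± 68.1 CPM (log2 difference 1.1, edgeR adjusted p = 0.0239). Syne3, encoding nesprin-3, the outer nuclear membrane protein that plectin joins to intermediate filaments, fell from 16.9 ± 1.15 to 5.95 ± 0.929 CPM (log2 difference -1.50, edgeR adjusted p = 0.00346). Tmem43 and Sun2, which encode lamin-binding membrane proteins, had log2 differences of -0.06 and -0.23 and were not called (edgeR adjusted p = 0.746 and 0.159). The call for Tor1aip1 was lost without control 1, control 2, LPS 1 or LPS 2 (edgeR adjusted p = 0.0923, 0.111, 0.0549 and 0.064), while Syne3 was called without each single library. With the replicate block Syne2, encoding nesprin-2, was called lower in addition (edgeR adjusted p = 0.00803 with it, 0.0653 without it).

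Of the 5 genes that farnesylate and cleave prelamin A and the B-type lamins, edgeR called 0 in either direction (unadjusted p under 0.05 and DESeq2: 1 higher and 1 lower each, limma-voom: 0 and 0), 1 lower without control 3 (Fnta, -0.42, edgeR adjusted p = 0.03, from 0.00335 to 0.197 over the alternatives), and the median log2 difference was 0.04 (from 0.01 without control 3 to 0.07 without control 1 or control 2). Zmpste24, the protease that completes lamin A, had 115 ± 6.13 CPM in control against 118 ± 1.59 CPM in LPS (log2 difference 0.04, SE 0.07, edgeR adjusted p = 0.732). Icmt, the methyltransferase of the same route, had a log2 difference of 0.12 (edgeR adjusted p = 0.383). Rce1 was called higher and Fnta lower with the replicate block (edgeR adjusted p = 0.041 and 0.0206, against 0.0713 and 0.0552 without it).

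Enzymes that phosphorylate, citrullinate or cut filaments and lamins were represented by 13 tested genes, of which 1 was called higher and 1 lower, with a median log2 difference of -0.46 (-0.30 without LPS 3). Pak1, a kinase that phosphorylates vimentin, rose from 40.5 ± 3.17 to 56.5 ± 6.07 CPM (log2 difference 0.48, edgeR adjusted p = 0.0385). Padi2, the deiminase that citrullinates GFAP and vimentin, fell from 14.1 ± 1.21 to 5.22 ± 2.02 CPM (log2 difference -1.44, edgeR adjusted p = 0.0253). Pak1 was not called without control 1, control 2, control 3, LPS 1 or LPS 2 (edgeR adjusted p from 0.0766 to 0.144), nor Padi2 without any of the same 5 libraries (from 0.0556 to 0.0938). Scaled by upper quartile or by library size alone, Pak1 was not called either (0.38 and 0.32, edgeR adjusted p = 0.104 and 0.134). The fit with the replicate block called 2 higher and 4 lower. Cdk1, Plk1 and Aurkb of this list are also proliferation genes.

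Of 5 transcription factor genes known to act on the Gfap promoter, 2 were called lower, Nfia (log2 difference -0.75, edgeR adjusted p = 0.0452) and Nfix (-0.44, 0.0425). Stat3, which carries cytokine signals to that promoter, had 269 ± 21.8 CPM in control against 341 ± 10.8 CPM in LPS, a log2 difference of 0.34 which missed the threshold (edgeR adjusted p = 0.0506) but was called with the replicate block (0.0229). Both calls were lost without control 1, control 2, LPS 1 or LPS 2, and that for Nfix also without LPS 3 (edgeR adjusted p up to 0.166). The median of the 5 was 0.16, but -0.01 without LPS 2, 0.00 without control 3, 0.03 without LPS 1, 0.26 without control 1 and 0.32 without LPS 3.

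Finally, Gfap and Vim were set beside the other pan-reactive genes, a list defined for astrocytes of the injured brain that includes both. Of its 13 genes 8 were called higher and 0 lower by edgeR, against 9.09% and 6.71% of all genes. The counts were 8 and 1 at an unadjusted p under 0.05, 8 and 1 with DESeq2, and 7 and 0 with limma-voom. The median log2 difference of the 13 genes was 1.11. Those that rose most were Cxcl10, a chemokine, Lcn2, a siderophore-binding protein, Steap4, a metalloreductase, and Cp, the copper protein ceruloplasmin, with log2 differences of 9.41, 9.31, 5.6 and 4.86 (adjusted p by edgeR: 0.00238, 0.0055, 0.0235 and 0.000878). LPS 3 stood apart below the other LPS libraries, with Lcn2 at 1645, 1643 and 264 CPM, Steap4 at 269.8, 266 and 30.3 CPM and Cxcl10 at 838, 970.4 and 242 CPM in LPS 1, 2 and 3. Steap4 was not called without control 1, control 2, LPS 1 or LPS 2 (edgeR adjusted p up to 0.1), and without control 1 or control 2 the list had 5 genes called higher. Gfap at -0.04 and Vim at -0.29 were among the 5 genes of the list that were not called, with S1pr3, Hspb1 and Aspg. Vim and Hspb1 were called lower with the replicate block (edgeR adjusted p = 0.0298 and 0.00436). The cultures also held mesenchymal and macrophage transcripts, and which cells carried the changes in this list was not tested. In the 9 related lists together, 73 genes were tested, of which 10 were called higher and 8 lower (5 to 13 and 2 to 11 without single libraries, fewest in both directions without control 2).

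**Figure D5:**
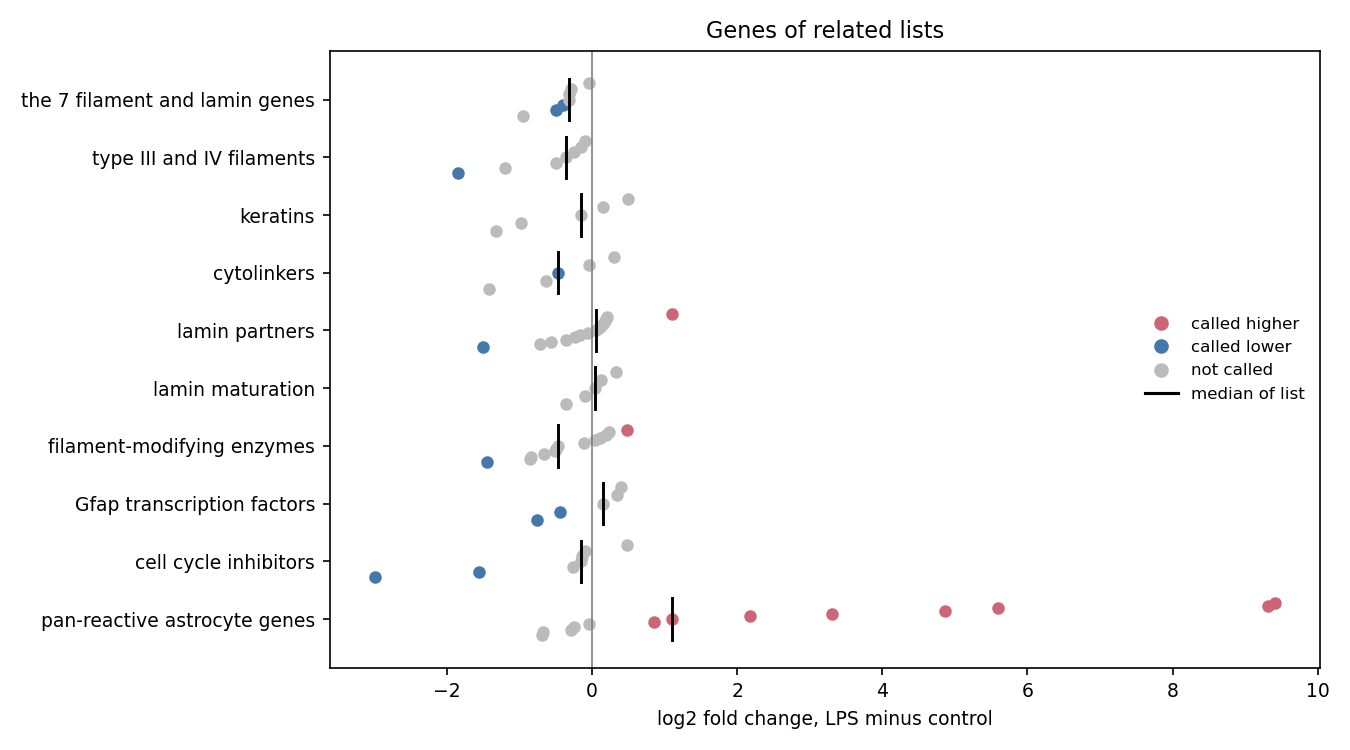
Log2 difference, LPS minus control, of each tested gene (points) of the 7 filament and lamin genes and of 9 related lists, with the median of each list as a bar and edgeR calls in colour. Most filament and lamin genes lie to the left of 0, and the 8 genes called higher in the pan-reactive list lie to the right of Gfap and Vim.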

How the data were processed

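RNA of 6 samples was isolated with the RNeasy micro kit and made into poly(A) libraries. The files deposited by the authors hold a whole-number count for each gene and library, with no normalisation. Per the series text and the submitters' processing notes, the authors trimmed and filtered reads (cutadapt 1.15, FastX, Bowtie2 2.3.3.1 for contaminants) and aligned them to GRCm38 with STAR 2.5.2b. The notes list SAMtools 1.5 and featureCounts 1.5.3. The labels name a stranded kit and the series text a TruSeq kit without that word, the strand setting is not given in the sources used here, and replicates were not pooled. No pair of libraries held identical values, and a table of all libraries held the same counts as the single files, so refitting it is not counted among the alternatives.

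Low genes were filtered out by filterByExpr (minimum count 10, minimum total 15), TMM factors (0.917 to 1.08) were computed and LPS was compared with control by the quasi-likelihood F-test of edgeR 4.0.16 (R 4.3.3) with group as the single term, two-sided, and Benjamini-Hochberg adjustment over 15226 genes. The script was tested on simulated data. Exon lengths came from GENCODE M21. Ratios took counts plus 0.5 per kb and were tested by exact permutation (SciPy 1.17.1). Libraries with the same number in both groups deviated together (r = 0.513, 0.334 and 0.613), so the number was used as a block in an alternative fit; this pairing comes from the data and not from the labels. Control 1 and LPS 2 also correlated (0.419), as did control 2 and LPS 1 (0.323). Alternatives were DESeq2 1.42.0, limma-voom 3.58.1, other scaling factors, other filters, and leaving out libraries.

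The members and the gene lists were chosen with earlier results of these data known. All 7 genes were named, with up to 4 called genes of each related list by size of change, up to 2 abundant genes not called, and the 2 genes nearest in pattern to each (mean of at least 5 CPM). Genes called with the block alone were named after their values were seen.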

Additional observations from a re-analysis of the deposited data

How the results depend on the processing

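Over 15 alternatives, the log2 fold changes of Vim, Nes, Synm, Lmna and Lmnb1 kept a negative sign. Gfap rests on 40 to 138 counts, and its values spread between libraries of the same group. Lmnb2 reversed to 0.01 without both libraries numbered 3, and the cause was not tested. That setting tested 2 libraries per group and gave 3498 higher and 3159 lower genes, 4 of the 7 genes lower, and 21 higher and 20 lower related genes, with Vim at -0.24 and Lmnb1 at -0.53, both called. With the replicate block, 2343 genes were higher, 2273 lower and 18 related genes lower, and Vim was called at -0.29, while no call changed for the other 6 genes. Lmnb1 was also called with upper-quartile factors (-1.05), library size alone (-1.10) and DESeq2 (-0.94). These scalings moved the median of all genes from -0.02 to -0.12 and -0.18 and gave 1589 and 2054 lower genes, the latter with 13 lower related genes. DESeq2 called 2079 genes higher, 1673 lower and 14 related genes lower. Both limma-voom and the fit with no filter called 5 related genes lower. With no filter, Macf1, Pak1, Nfia and Nfix were not called (edgeR adjusted p = 0.0619, 0.0624, 0.05 and 0.0551), nor Nfia and Steap4 with limma-voom (0.0683 and 0.0917). Zmpste24 reversed with upper-quartile factors (-0.06) and library size alone (-0.12), Icmt with library size alone (-0.03), Prph with limma-voom (0.00) and Tmem43 without the libraries numbered 3 (0.04).

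Leaving out single libraries gave 379 to 1964 genes higher and 112 to 1426 lower, 0 to 2 of the 7 genes lower (0 without control 1, control 2 or LPS 2, and 1 without control 3 or LPS 1), and 5 to 13 related genes higher and 2 to 11 lower. The ranges were -0.74 to 0.26 for Gfap, -0.35 to -0.19 for Vim, -0.58 to -0.04 for Synm, -1.09 to -0.68 for Lmnb1, -0.43 to -0.06 for Lmnb2, -0.43 to -0.34 for Nes and -0.56 to -0.45 for Lmna, and -0.47 to 0.28 for Prph, -0.49 to 0.16 for Ina, -0.08 to 0.03 for Plec and -0.14 to 0.04 for Tmem43. The ratios to Vim ran from -0.52 to 0.48 for Gfap, -0.23 to 0.01 for Nes and -0.30 to 0.22 for Synm.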

Other observations

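Genes outside the filament and lamin families that stop the cell cycle were read from the same fit. Of 7 cyclin-dependent kinase inhibitor genes, 2 were called lower and 0 higher by edgeR (unadjusted p under 0.05 and DESeq2: 2 lower and 1 higher each, limma-voom: 0 and 0), with a median log2 difference of -0.15 (-0.07 without LPS 3, -0.09 without control 1, -0.34 without control 3, -0.40 without LPS 1 and -0.30 without LPS 2). Cdkn1c, encoding p57, had 90.0 ± 51.3 CPM in control against 11.3 ± 0.826 CPM in LPS (mean ± SD of 3 libraries; log2 difference -2.99, edgeR adjusted p = 0.0186). Cdkn2c, encoding p18, was at 22.4 ± 9.66 and 7.68 ± 0.383 CPM (log2 difference -1.55, edgeR adjusted p = 0.0256). Cdkn1c was not called without control 1, control 2, LPS 1 or LPS 2 (edgeR adjusted p up to 0.0845), nor Cdkn2c without control 2, LPS 1 or LPS 2 (up to 0.106). Cdkn1a, encoding p21, and Cdkn2b, encoding p15, were not called, with 366 ± 51.7 and 82.0 ± 26.2 CPM in control against 514 ± 66.5 and 68.3 ± 17.4 CPM in LPS (edgeR adjusted p = 0.0801 and 0.606). Cdkn1a was called higher with the replicate block (0.49 on the log2 scale, edgeR adjusted p = 0.00822).

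Keratins, the filaments of epithelia and mesothelium, were scarce. Of 10 genes 5 passed the filter on low counts, their summed level with the others lay between 6.46 and 14.8 CPM in every library, and edgeR called 0 in either direction (0 also at an unadjusted p under 0.05, with DESeq2 and with limma-voom). With the replicate block Krt7 and Krt18 were called lower (edgeR adjusted p = 0.048 and 0.0376), but Krt7 was at or under the floor in LPS 1 and LPS 2 (0.148 and 0.0557 CPM). Without both libraries numbered 3, edgeR called 1 keratin higher and 0 lower, and the median log2 difference was 0.45, against -0.15 with all libraries.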
